A study of Mus musculus with 2 samples.

Results

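AP-1 is a family of transcription factors that bind DNA as pairs. The genes described here are its 8 common members in the mouse, chosen by symbol: Fos, Fosb, Fosl1 and Fosl2 of the Fos family, Jun, Junb and Jund of the Jun family, and Atf3. They are 8 of the 32285 genes counted, and 7 of them had UMIs (unique molecular identifiers, each marking 1 captured mRNA molecule). The cells were B16 F10, a pigmented mouse melanoma line. They were seeded sparsely, at 100 cells/cm2, kept in serum-supplemented DMEM (10% fetal bovine serum, high glucose) and trypsinized on day 7. A flow cytometer then separated low pigment from high pigment cells by side scatter, an optical stand-in for melanin content, and each fraction became 1 droplet library of 3′ mRNA tags. With 1 library a group there is no replicate, so no test between the groups was made, and every interval below is a 95% interval that covers counting error only. Both groups share the line, medium, seeding, trypsin step and sorter, and neither received a treatment.

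AP-1 proteins act as dimers joined through a leucine zipper. Jun proteins pair with themselves or with Fos proteins, whereas Fos proteins need a Jun partner, and the pairs bind a short site known as the TPA response element. Fos, Fosb, Jun, Junb and Atf3 are early response genes: growth factors, stress and cell handling switch their transcription on within minutes, and their mRNAs are short-lived. In melanoma, high JUN and FOSL1 activity is known from dedifferentiated states with little pigment, and Atf3 marks cellular stress.

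The libraries held 1900 low pigment cells with 32437194 UMIs and 2136 high pigment cells with 28848691 UMIs, with a median of 16020 and 12557 UMIs per cell. No cell barcode sequence was shared between them. Melanocyte markers summed to 11243 and 14732 CPM (UMIs of the gene per 1000000 UMIs of a library) in the low and high pigment cells, with none of 7 markers at 0, so the labelled cell type carried its markers. The 5 fibroblast markers summed to 0.832 and 2.15 CPM, the 5 leukocyte markers to 2.84 and 2.32 CPM, and the keratinocyte and erythroid markers to at most 0.185 CPM. Endothelial markers summed to 22.6 and 2.98 CPM, nearly all of it Pecam1 at 22.4 and 2.81 CPM, while Cdh5 reached 0.0617 CPM in the low pigment cells alone and Emcn was at 0 in both. Cells called G1, S and G2M by the deposited table made up 39.4%, 37.1% and 23.5% of the low pigment cells and 33.1%, 22.4% and 44.4% of the high pigment cells.

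Fos, Fosb, Jun and Atf3 were the members with the widest gap between the sorts. Their promoters are shown to give the genomic context of these mRNAs, as the 250 bases before each RefSeq start on the gene's own strand, from RefSeq on GRCm38.p6, which is the mm10 build of the counts. The windows are chr12:85473640-85473889 (plus strand) for Fos, chr7:19310046-19310295 (minus strand) for Fosb, chr4:95052223-95052472 (minus strand) for Jun and chr1:191183334-191183583 (minus strand) for Atf3. Capitals mark any match on either strand to 5 motifs, chosen with these sequences in view. They are TGACNTCA, the longer AP-1 and ATF type of site. The TPA response element was searched as TGANTCA. The core of the cAMP response element was searched as TGACGT and the TATA box as TATAAA. The CArG box, where serum response factor binds, was searched as CCWWWWWWGG, with W for A or T. Bases farther upstream than these windows were not searched.
Fos: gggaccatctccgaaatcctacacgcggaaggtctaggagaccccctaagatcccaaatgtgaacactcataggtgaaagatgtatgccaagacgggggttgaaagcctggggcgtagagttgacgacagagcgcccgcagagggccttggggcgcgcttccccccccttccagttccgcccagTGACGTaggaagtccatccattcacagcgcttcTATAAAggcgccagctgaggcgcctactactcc
Fosb: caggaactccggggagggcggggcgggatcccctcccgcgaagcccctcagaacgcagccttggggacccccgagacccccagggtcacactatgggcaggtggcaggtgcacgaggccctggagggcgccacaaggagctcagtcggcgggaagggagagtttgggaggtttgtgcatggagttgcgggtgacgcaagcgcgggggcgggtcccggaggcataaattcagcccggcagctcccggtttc
Jun: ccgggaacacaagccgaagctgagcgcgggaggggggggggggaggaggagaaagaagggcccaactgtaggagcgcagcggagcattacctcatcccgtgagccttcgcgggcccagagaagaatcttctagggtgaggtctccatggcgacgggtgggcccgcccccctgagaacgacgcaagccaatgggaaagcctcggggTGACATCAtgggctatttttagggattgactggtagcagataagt
Atf3: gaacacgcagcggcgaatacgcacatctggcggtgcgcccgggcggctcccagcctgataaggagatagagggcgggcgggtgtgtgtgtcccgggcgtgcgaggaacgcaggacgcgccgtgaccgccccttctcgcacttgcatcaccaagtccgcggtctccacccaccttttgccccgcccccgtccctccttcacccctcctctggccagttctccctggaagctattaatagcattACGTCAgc
The Jun window held TGACATCA, a TGACNTCA match whose first base lies 45 bases before the start. In the Fos window TGACGT began 66 bases and TATAAA 33 bases before the start. The Atf3 window held TGACGT on the opposite strand, read as ACGTCA, beginning 8 bases before the start. TGACGT and TGACNTCA can overlap, but did not in these windows. The Fosb window held no match to any of the 5 motifs. These starts are those of RefSeq transcripts: for Fos and Jun they are also the ends of the GENCODE gene spans given further on, whereas the Fosb window reaches a few bases into its gene span and the Atf3 window lies inside the span of Atf3. Of 32851 promoter windows of the same length, 7.49% held TGACNTCA, 6.75% TGANTCA, 6.47% TGACGT, 12.4% TATAAA and 1.47% a CArG box, so a match is a description of the letters and no site or cause.

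All 7 detected members were lower in the high pigment library. Jun, Fos and Fosb were more than 6-fold lower, Atf3 3.80-fold, and Jund, Fosl2 and Junb 1.94-fold to 2.40-fold. Each of the 7 passed a difference of 1.5-fold, the size used here to count a gene in place of a test. Among the 7849 genes with a mean of at least 10 CPM, called measured below, 8.08% passed 1.5-fold with the lower level in high pigment cells and 3.25% with the higher. The median log2 ratio of high to low pigment was -1.93 over the 7 members and -0.08 over all measured genes. Ranked by fold among the 7849, Fosb stood at 7, Jun at 10, Fos at 11, Atf3 at 39, Jund at 87, Fosl2 at 120 and Junb at 180. Since the family was chosen with these libraries already described, the ranks carry no test.

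Jun encodes c-Jun, the strongest activator of the Jun family. It stood at 842 CPM (832 to 852) in the low pigment library and 129 CPM (125 to 133) in the high pigment library, 6.54-fold lower (6.32 to 6.77). Per cell this was 14.4 against 1.74 UMIs. Jun was the most abundant member in low pigment cells. Jund, whose product is the steadily expressed Jun protein and a weaker activator, was 348 CPM (341 to 354) against 145 CPM (140 to 149), 2.40-fold lower (2.32 to 2.49). Junb encodes a Jun protein that can oppose c-Jun. It was 98.2 CPM (94.8 to 102) against 50.6 CPM (48.1 to 53.3), 1.94-fold lower (1.82 to 2.06), the smallest gap of the family. The Jun intervals do not overlap those of Jund or Junb in fold, so the 3 Jun genes did not share a single ratio.

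Fos encodes c-Fos, the classic early response partner of c-Jun. It was 137 CPM (133 to 141) in low and 21.8 CPM (20.1 to 23.5) in high pigment cells, 6.28-fold lower (5.78 to 6.84). Fosb, which also yields the long-lived ΔFosB protein by splicing, was 115 CPM (111 to 118) against 16.7 CPM (15.3 to 18.3), 6.85-fold lower (6.23 to 7.55). The fold intervals of Fos, Fosb and Jun overlapped, so these 3 genes could not be ordered by fold. Fosl2 encodes Fra-2, a Fos protein without the strong activation domain of c-Fos. It was 128 CPM (124 to 132) against 59.6 CPM (56.8 to 62.4), 2.15-fold lower (2.03 to 2.28). Fosl1, which encodes Fra-1, had no UMI in either library, which allows up to 0.0925 CPM in low and 0.104 CPM in high pigment cells when 3 counts are taken as the limit of a 0. Atf3, a stress-induced repressor that pairs with Jun proteins, was 69.1 CPM (66.3 to 72.0) against 18.2 CPM (16.7 to 19.8), 3.80-fold lower (3.45 to 4.18).

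**Figure D1:**
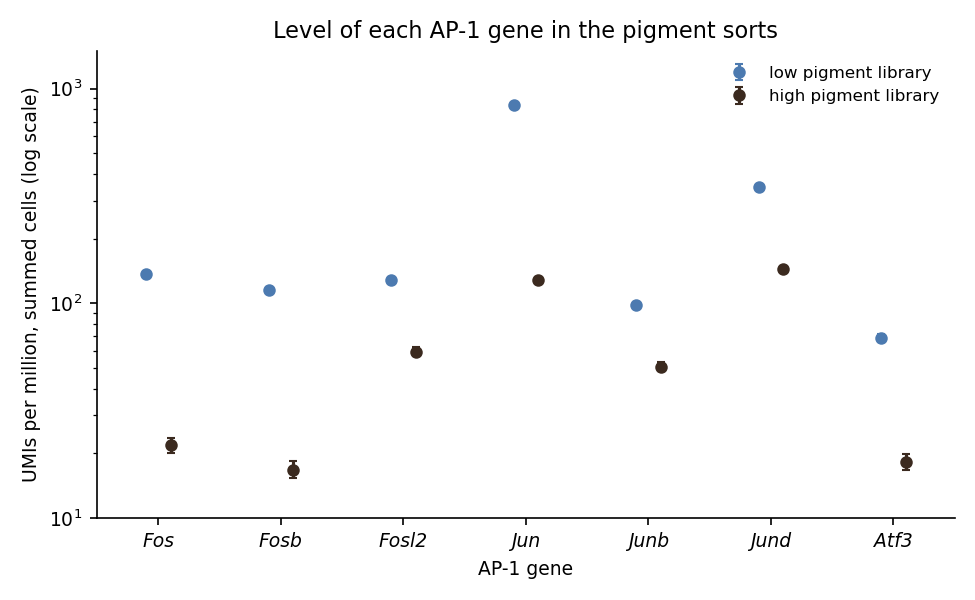
CPM in the summed cells of each library on a log axis, for the 7 AP-1 genes with UMIs; bars are exact Poisson 95% intervals, often smaller than the point. Every gene sits lower in the high pigment library, and the gap is widest for Jun at 842 against 129 CPM, Fos and Fosb and narrowest for Junb at 98.2 against 50.6 CPM.

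These 3′ tags count mRNA molecules, so levels of different genes are set side by side without division by length. In low pigment cells the order was Jun, Jund, Fos, Fosl2, Fosb, Junb and Atf3, and no neighbouring intervals overlapped, the closest being those of Fos and Fosl2. Among high pigment cells the order was Jund, Jun, Fosl2, Junb, Fos, Atf3 and Fosb. There the intervals of Atf3 and Fosb overlapped, and Jund exceeded Jun.

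The make-up of the AP-1 mRNA pool differed along with its size. Together the members took 0.174% of low pigment UMIs and 0.0440% of high pigment UMIs. Jun made up 48.5% (48.1 to 48.9) of the member UMIs in low and 29.2% (28.4 to 30.0) in high pigment cells. Jund went the other way, from 20.0% to 32.9%, as did Fosl2, from 7.37% to 13.5%, and Junb, from 5.65% to 11.5%. Fos held 7.88% and 4.94%, and Fosb 6.61% and 3.80%. The division between families was nearly the same: the Fos family held 21.9% (21.5 to 22.2) in low and 22.3% (21.6 to 23.0) in high pigment cells, and the Jun family 74.2% and 73.6%. Within each family the pool of the high pigment cells thus held a larger share of Jund, Junb and Fosl2.

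Where the counted genes lie bears on what their tags can be. In the GENCODE annotation of GRCm38, Fos spans 85473890 to 85477273 of chromosome 12, Fosb 19302696 to 19310051 of chromosome 7, Fosl2 32135801 to 32157842 of chromosome 5, and Atf3 191170296 to 191218039 of chromosome 1. None of these has an exon that overlaps an exon of another gene. Jun, at 95049034 to 95052222 of chromosome 4, overlaps the antisense RNA gene Junos, which had 2.96 and 1.46 CPM. Junb, at 84974484 to 84978718 of chromosome 8, overlaps Prdx2 on the opposite strand, which had 334 and 343 CPM. Jund, at 70698949 to 70700616 of chromosome 8, overlaps Gm11175, with 5 and 2 UMIs. Fosl1, at 5447547 to 5455946 of chromosome 19, overlaps Ccdc85b on the opposite strand, which had 26.4 and 17.2 CPM. The sources used here do not say whether counting used strand. Without strand, tags from the stretch where exons of Junb and Prdx2, or of Fosl1 and Ccdc85b, overlap could not be told apart. The limits given for Fosl1 thus hold for tags assigned to that gene, and the part of the overlap in its 0 UMIs was not tested. Junb had the smallest gap of the family and Prdx2 a ratio near 1, and the part of the overlap in that was not tested.

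The difference between the sorts was present in each called cell cycle phase. Within G1, S and G2M cells alone, all 7 members again passed 1.5-fold in the same direction, beside 9.58%, 8.47% and 9.45% of measured genes. Jun was 6.34-fold lower in G1 (5.99 to 6.71), 6.62-fold in S (6.11 to 7.20) and 7.08-fold in G2M (6.72 to 7.47). Its G1 and G2M intervals lay next to each other without overlap. Fosb was 6.92-fold, 5.65-fold and 7.22-fold lower, with overlapping intervals. Fosl2 was 2.44-fold lower in G1 (2.24 to 2.67) and 1.81-fold in S (1.60 to 2.05). With phases called again from thinned counts, its ratios of high to low pigment were 0.485 (0.434 to 0.540) in G1, 0.498 (0.421 to 0.586) in S and 0.506 (0.468 to 0.546) in G2M, with overlapping intervals, so its gap was not wider in G1 under those calls. Fos was 5.51-fold, 6.69-fold and 6.57-fold lower in G1, S and G2M, and Atf3 3.94-fold, 4.29-fold and 3.20-fold. Jund was 2.27-fold, 2.31-fold and 2.42-fold lower and Junb 1.91-fold, 1.66-fold and 1.97-fold, each with overlapping intervals. Under the phases called from thinned counts, the intervals of Jun, Jund and Fosb did not all overlap. For Jun the ratio of high to low pigment was 0.1752 (0.163 to 0.1883) in G1, 0.1441 (0.1285 to 0.1611) in S and 0.1477 (0.1415 to 0.1542) in G2M. The ratio of high to low pigment for Jund was then 0.497 (0.462 to 0.535) in G1 and 0.419 (0.399 to 0.439) in G2M. For Fosb it was 0.215 (0.169 to 0.270) in S and 0.132 (0.116 to 0.149) in G2M.

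Across phases of the same library the members parted ways. In low pigment cells Fos was 142, 137 and 131 CPM in G1, S and G2M, and Fosb 118, 118 and 107 CPM, close to level. Fosl2 was 186 CPM in G1 against 97.8 CPM in S and 99.7 CPM in G2M. Jun was 1013 CPM in G1, 685 CPM in S and 853 CPM in G2M, lowest in S and intermediate in G2M. Jund, Junb and Atf3 stepped down from G1 to G2M, Jund from 386 to 308 CPM, Junb from 114 to 82.6 CPM and Atf3 from 78.6 to 57.5 CPM. Fosl2 was the only member at least 1.5-fold lower in S than in G1, where 2.26% of measured genes were, and the only one in G2M against G1, where 1.91% were. Among high pigment cells Jun had the same order, with 160, 103 and 120 CPM, and it was the only member at least 1.5-fold lower in S than G1, beside 1.4% of genes. Fosl2 there was 76.3, 54.0 and 51.7 CPM, and no member passed 1.5-fold in G2M against G1, beside 0.828% of genes. The sources used here do not say which genes the phases were called from. Low pigment cells called G1 had a median of 13817 UMIs and those called G2M 20280 UMIs. The part of depth in these differences between phases was not tested. Nor were they repeated with phases called from thinned counts.

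**Figure D2:**
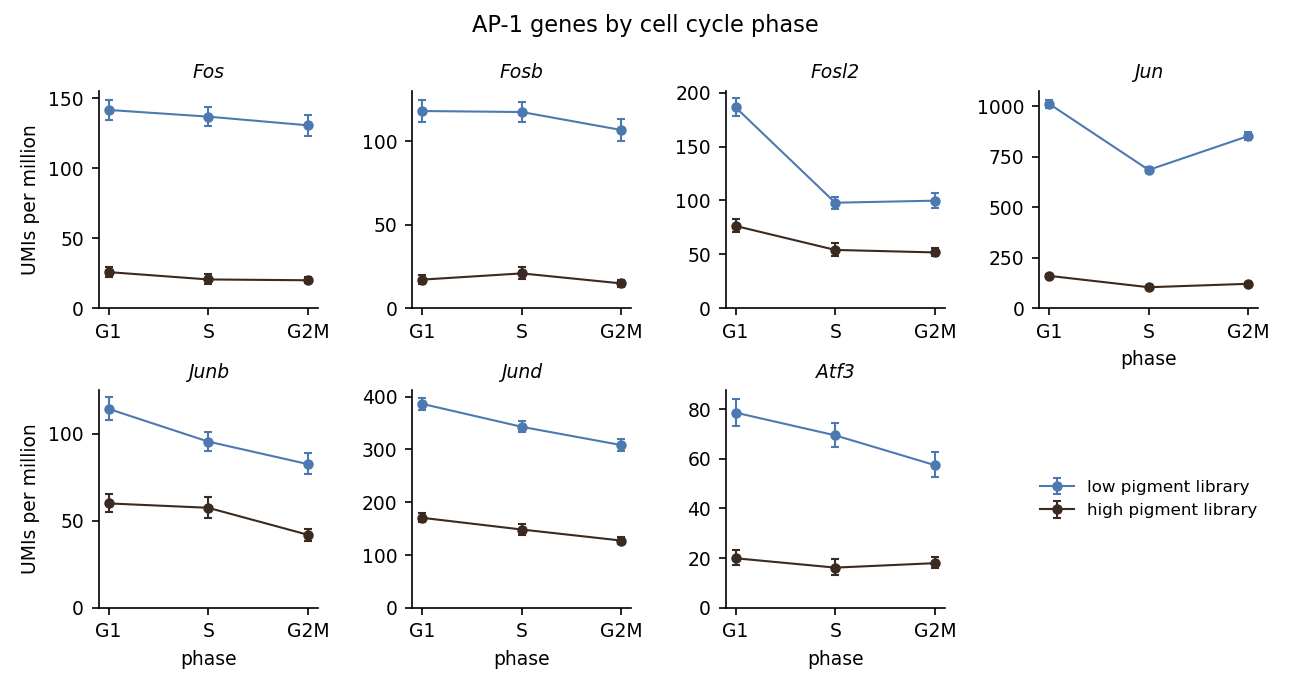
CPM by called phase, one panel a gene with its own linear axis from 0; points are summed cells of a library, bars exact Poisson 95% intervals. Fos and Fosb run nearly level in low pigment cells, Fosl2 falls away after G1 from 186 to 97.8 CPM, and Jun is lowest in S in both libraries.

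The deposited table sorts the cells into 4 clusters, numbered 0 to 3, without a record in the sources used here of which genes entered them. AP-1 genes may have been among these, so levels by cluster are a description. Low pigment cells lay almost wholly in cluster 1 (1023 cells, mostly G1) and cluster 2 (822 cells), and high pigment cells in cluster 0 (1520 cells) and cluster 3 (523 cells, mostly G1). Fosl2 differed more by cluster than by phase. In low pigment cells of cluster 1, Fosl2 was 189 CPM in G1, 166 CPM in S and 162 CPM in G2M, whereas in cluster 2 it was 74.8 CPM in S and 82.9 CPM in G2M. Jun behaved in part likewise, with 1024, 904 and 1063 CPM by phase in cluster 1 and 620 and 800 CPM in S and G2M of cluster 2. In high pigment cells of cluster 0, Jun was 92.4, 90.7 and 92.5 CPM in G1, S and G2M, with no difference between phases beyond the intervals. In cluster 3 it was 183 CPM in G1 and 260 CPM in the 54 G2M cells. Between the clusters, Fosl2 alone was at least 1.5-fold lower in cluster 2 than in cluster 1 of the low pigment cells (2.31-fold), where 2.1% of genes were. In high pigment cells Jun (2.08-fold), Fosl2 (2.02-fold), Fos (1.94-fold) and Junb (1.56-fold) were at least 1.5-fold lower in cluster 0 than in cluster 3, where 2.32% of genes were. Depth differed too, with a median of 18959 UMIs in cluster 2 and 14204 UMIs in cluster 1 of the low pigment cells. In high pigment cells it was 13854 UMIs in cluster 0 and 9606 UMIs in cluster 3. The part of depth in these differences between clusters was not tested.

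A minority of each library lay in the clusters of the other. The 93 high pigment cells of clusters 1 and 2 were 4.35% of that library's cells and held 3.67% of its UMIs, but 26.1% (22.7 to 29.7) of its Fos UMIs, 21.5% of Fosb, 16.7% of Jun and 14.9% of Atf3. Their shares of Jund and Junb UMIs were 5.99% and 5.48%, and that of Fosl2 was next to Jund's. Fos stood at 155 CPM in these cells and 16.7 CPM in the 2043 other high pigment cells, Jun at 587 and 111 CPM, and Fosb at 98.2 and 13.6 CPM. All 7 members were at least 1.5-fold higher in the 93 cells summed, as were 10.1% of measured genes. The interval of the ratio reached below 1.5 for Fosl2 (1.36 to 2.04), Jund (1.465 to 1.90) and Junb (1.20 to 1.91). In cluster 1 Junb was 105 CPM and Fosl2 128 CPM. In cluster 2 they were 46.6 CPM (30.2 to 68.8) and 67.1 CPM (47.0 to 92.9). Those intervals include the 49.7 and 58.1 CPM of the other high pigment cells. In low pigment cells the reverse was smaller: the 55 cells of clusters 0 and 3 had 531 against 851 CPM of Jun, 66.6 against 139 CPM of Fos and 57.4 against 116 CPM of Fosb, the 3 members at least 1.5-fold lower beside 8.8% of genes. Jund was 326 against 348 CPM and Junb 93.1 against 98.3 CPM, with overlapping intervals. Fosl2 was 96.5 against 129 CPM, and Atf3 was the one member with the higher value in these cells summed, 79.3 against 68.8 CPM, a ratio of 1.15 (0.893 to 1.46). The sums hide a difference between the clusters. Jund was 228 CPM (192 to 269) in the 36 cells of cluster 0 and 556 CPM (469 to 654) in the 19 cells of cluster 3. Atf3 was 59.1 CPM (41.4 to 81.8) and 126 CPM (87.0 to 178) there. The 93 cells had a median of 11153 UMIs and none was marked as a doublet; whether they were missorted was not tested. Without the cells of both minorities the fold was wider for all 7 members, with Fosb at 8.53, and each stayed at least 1.5-fold lower. Fosl2, Junb and Jund remained within their main counting intervals. The 93 cells left out held the higher member levels of their library, so wider folds follow from the choice of cells.

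**Figure D3:**
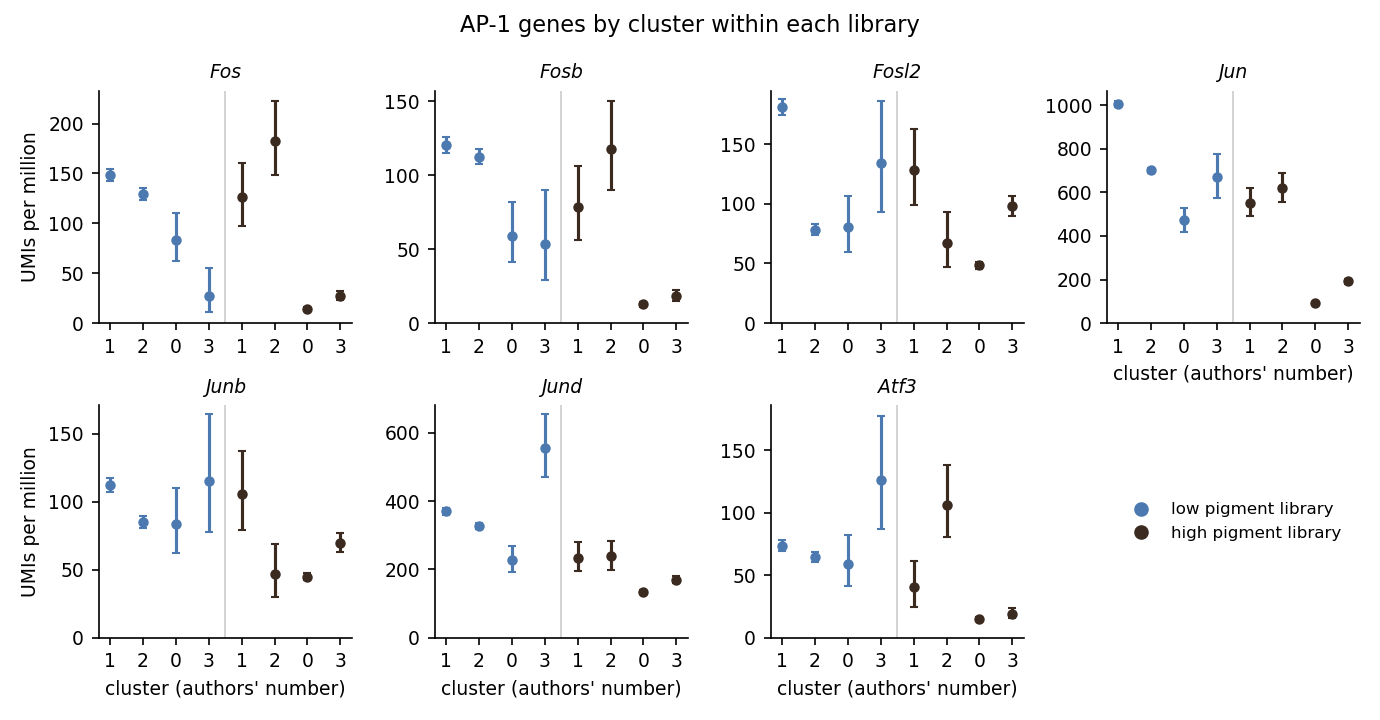
CPM by the authors' cluster within each library, one panel a gene with its own linear axis from 0; bars are exact Poisson 95% intervals, wide where a cluster holds few cells (36 and 19 low pigment cells in clusters 0 and 3, 48 and 45 high pigment cells in clusters 1 and 2). The high pigment cells of clusters 1 and 2 sit far above those of clusters 0 and 3 for Fos, Fosb and Jun, with Jun at 552 and 621 against 92.1 and 191 CPM.

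Detection in single cells was compared after each cell was thinned at random to 7500 UMIs, below the depth of every cell used. Jun had a UMI in 96.7% (95.8 to 97.5) of low pigment cells and 49.6% (47.4 to 51.7) of high pigment cells. Jund was found in 88.0% and 58.9%, which made it the most often detected member of the high pigment library. Fos was found in 52.7% (50.5 to 55.0) and 11.2% (9.88 to 12.6), Fosb in 49.0% and 9.79%, and Atf3 in 36.0% and 10.9%. Fosl2 was found in 55.4% and 33.7%, and Junb in 47.9% and 29.7%. Without thinning Jun was found in 98.9% and 63.3%, Fos in 72.0% and 17.2%, Fosb in 69.8% and 14.3%, Fosl2 in 75.6% and 46.2%, Junb in 69.6% and 42.7%, Jund in 97.3% and 74.7% and Atf3 in 54.1% and 16.7%. Fosl1 was found in 0 of 1900 and 0 of 2136 cells. No cell type in these libraries is known to lack the other members, so a background share from free RNA could not be read from such cells.

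The spread over cells was wider than counting alone gives for every detected member in both libraries. Thinned Jun counts had a median of 6, a 90th percentile of 12 and a maximum of 37 UMIs in low pigment cells, with a variance 2.85 times the mean. In high pigment cells the median was 0 and the maximum 21 UMIs, with a variance 3.06 times the mean. Fos had a maximum of 9 UMIs and a variance 1.76 times the mean in low pigment cells. In high pigment cells, at a mean of 0.176 UMIs, its maximum was 16 UMIs and its variance 2.66 times the mean. Single high pigment cells thus reached counts of Fos above any seen in the low pigment cells at equal depth. Fosb had the same arrangement, with a maximum of 15 UMIs in high and 8 UMIs in low pigment cells. The high pigment values include the 93 cells of clusters 1 and 2, which held 26.1% of the library's Fos and 21.5% of its Fosb UMIs. Which clusters held the cells at the maximum was not examined. Junb, at the other end, had a variance 1.32 times the mean in low and 1.36 times in high pigment cells.

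Low pigment cells held more of the family at a time. Of the 7 detectable genes, a low pigment cell had a UMI of 4.26 on average (median 4) and a high pigment cell 2.04 (median 2). At least 5 members were found in 43.5% (41.2 to 45.7) of low and 4.63% (3.78 to 5.61) of high pigment cells. All 7 were found in 2.84% and 0.234%, and none in 0.211% and 11.4%. A Fos family and a Jun family mRNA were found together in 86.9% (85.3 to 88.4) of low and 38.7% (36.6 to 40.8) of high pigment cells. Jun family mRNA without Fos family mRNA was found in 12.5% and 43.7%, and Fos family without Jun family in 0.316% and 5.57%. Fos, Fosb and Jun were all found in 27.3% of low and 1.78% of high pigment cells. These joint shares also depend on how often each gene was detected by itself. They were not set beside the shares that independent detection would give. The 93 high pigment cells of clusters 1 and 2 held 3.67 members on average, against 1.96 in the other high pigment cells. A UMI that was not captured is not an absent mRNA, so a cell counted as without a gene may still hold its mRNA.

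**Figure D4:**
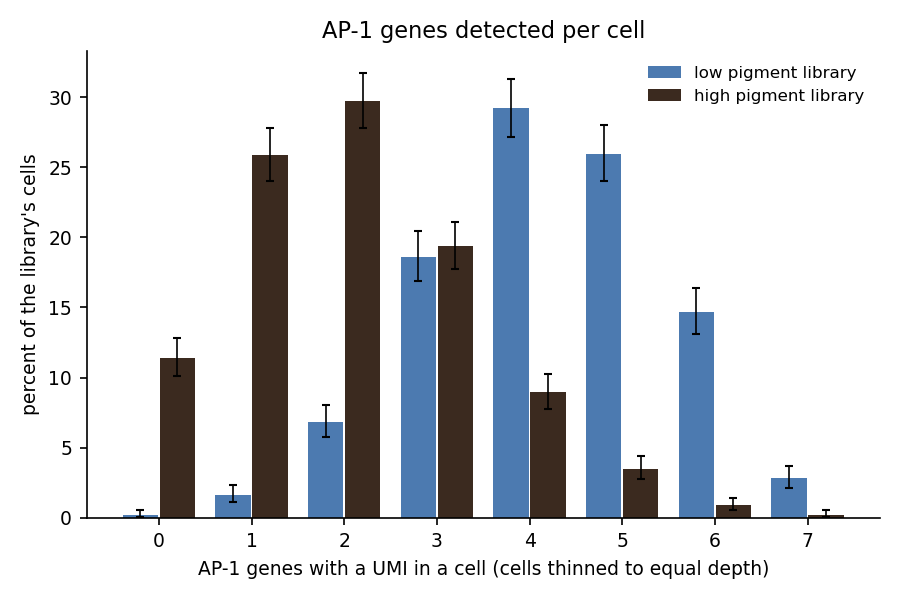
Percent of each library's cells by the number of AP-1 genes with a UMI, after thinning to 7500 UMIs; bars start at 0 and error bars are exact binomial 95% intervals. Low pigment cells centre on 4 genes and high pigment cells on 2, and 11.4% of high pigment cells have none.

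Joint detection was set beside the product of the single shares, the value that independent detection would give. In low pigment cells the 21 pairs lay between 0.976 and 1.10 times the product, and the interval of the joint share was above the product for 2 of them. Shares near 100% leave little room above 1. The largest of these ratios was that of Fosl2 and Junb, found together in 29.3% of cells against a product of 26.6%. Fos and Fosb were found together in 27.9% against 25.8%. In high pigment cells all 21 pairs lay above the product, from 1.01 to 2.19 times, and the interval was above it for 14. Fosb and Atf3 were found together in 50 cells, 2.34% (1.74 to 3.08) against a product of 1.07%. Fos and Fosb were also found together in 50 cells, 2.34% against 1.10%, or 2.14 times the product. For Fos and Jun it was 7.07% against 5.55%, 1.27 times the product.

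Part of this joint detection sat in the cells of the other sort's clusters. Of the 50 high pigment cells with Fos and Fosb, 23 were among the 93 cells of clusters 1 and 2, and without those 93 cells the ratio was 1.62. For Fosb and Atf3, 12 of 50 cells were among them and the ratio without them was 2.15. Fos and Atf3 went from 1.38 to 1.08 and Fos and Jund from 1.06 to 0.996, the only pair below the product. With at least 2 UMIs required of each gene, Fos and Fosb stood at 6.54 times the product in high and 1.37 times in low pigment cells. That limit left Fos in 3.28% and Fosb in 2.62% of high pigment cells, against 27.1% and 21.3% of low pigment cells. Smaller shares leave more room above the product, so the ratios of the libraries cannot be set against each other. No interval was made for them, and the 93 cells were kept in. Rank correlations between members over thinned cells, given only as a description, were weak throughout: Spearman's rho ran from -0.0631 to 0.187 over 1900 low pigment cells and from 0.0225 to 0.199 over 2136 high pigment cells. Cells of a library share its preparation and depth limits, and correlations this weak in sparse counts are no finding.

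**Figure D5:**
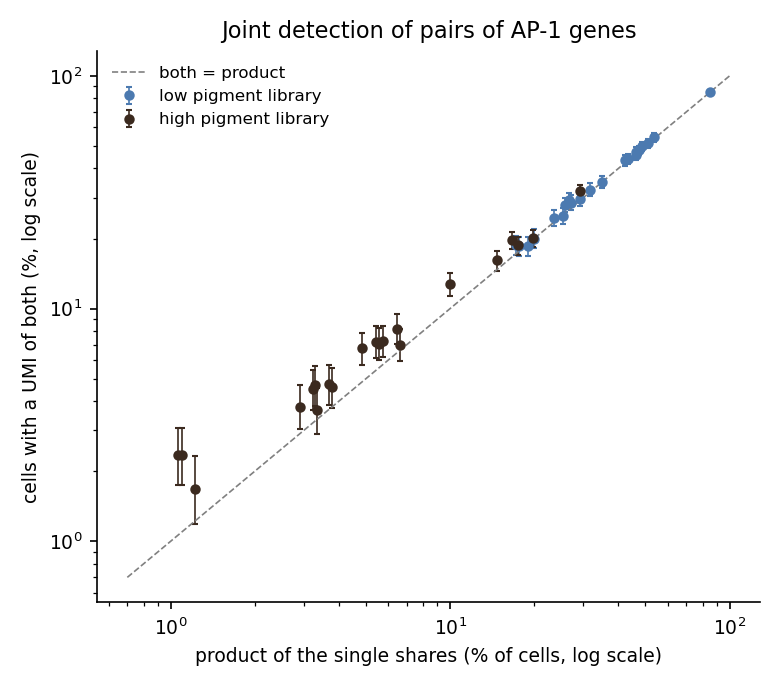
Percent of cells with a UMI of both genes of a pair against the product of the genes' single shares, both on log axes, for the 21 pairs in each library after thinning to 7500 UMIs; bars are exact binomial 95% intervals of the joint share. Low pigment pairs lie along the dashed line of equality, and the high pigment pairs with the smallest products, Fosb with Atf3 and Fos with Fosb, lie about 2.19 and 2.14 times above it.

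Member levels differed with depth and mitochondrial share within each library. In the low pigment library Jun was 956 CPM in the tertile of cells with the fewest UMIs and 791 CPM in the tertile with the most, and in the high pigment library 188 and 96.6 CPM. Fos in high pigment cells was 35.2 CPM in the shallowest and 15.5 CPM in the deepest tertile. By mitochondrial share, Fos was 119 CPM in the lowest and 155 CPM in the highest tertile of low pigment cells, and 16.4 and 31.2 CPM in high pigment cells. The other members did not all share this order. From the lowest to the highest mitochondrial tertile of low pigment cells Jun went from 915 to 778 CPM, Fosb from 125 to 101 CPM and Atf3 from 76.8 to 59.8 CPM. In high pigment cells Jun went the other way, from 108 to 148 CPM, and Atf3 was level at 18.0, 17.8 and 19.0 CPM. Each of these high pigment levels lay below the lowest low pigment tertile of its gene. Among cells of 12000 to 16000 UMIs Jun was 7.92-fold and Fos 8.62-fold lower in high pigment cells. With each cell thinned to 7500 UMIs the ratio of high to low pigment was 0.168 for Jun and 0.170 for Fos. Among cells under 5% mitochondrial UMIs it was 0.128 for Jun and 0.142 for Fos, so the gap stayed over 5-fold in each of these 3 selections.

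Genes whose counts ran most like those of the members were found among the measured genes by the smaller of the rank correlations in the 2 libraries. For the summed members these were Klf4 (rho 0.249 in low and 0.286 in high pigment cells), Ifrd1, Btg2, Smad7 and Nr4a2. For Fos they were Hes1 (0.227 and 0.185), Tob2, Nfkbia, Ccn1 and Dusp1, and for Fosb Klf4 (0.159 and 0.206), Sik1, Nr4a2, Tob2 and Nfkbia. Fosl2 had the strongest likeness of any member, to Klf4 (0.318 and 0.256), followed by Smad7, Nr4a2, Nr4a3 and Tob2. For Jun they were Btg2 (0.206 and 0.156), Klf4, Ifrd1, Hspa5 and Rnd3, and for Junb Klf4 (0.109 and 0.169), Gadd45b, Smad7, Egr1 and Ier3. Jund had Hist1h2bc (0.123 and 0.125), Btg2, Zfp703, 9330188P03Rik and Cebpb, and Atf3 had Btg2 (0.149 and 0.150), Cdkn1a, Kctd12, H3f3b and Lgals3. Of the genes named for Atf3, Cdkn1a at 246 and 458 CPM and Lgals3 at 301 and 697 CPM were higher in the high pigment library, against the direction of Atf3 itself. With Pearson's r of log2(thinned count + 1) in place of rank correlation, 3 of the 5 genes named for Jun were shared, and 4 or 5 of the 5 for each other member and the sum. All these correlations are weak and describe cells of 1 library each.

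The wider pathway was read from lists of related genes, each by its measured members and beside the 8.08% of all measured genes that were at least 1.5-fold lower in high pigment cells and the 3.25% that were higher. The other bZIP factors belong to the larger class of zipper proteins that includes AP-1. Of 22 measured, 3 were at least 1.5-fold lower in high pigment cells and none higher, with a median log2 ratio of -0.13. That share is not far from the one over all measured genes. The lower genes were the small Maf genes Mafk (2.29-fold) and Maff (2.11-fold) and the stress factor Ddit3 (1.78-fold). The largest ratios of high to low pigment in that list were those of Maf (1.48), Crem (1.16) and Jdp2 (1.11), the last a repressor that pairs with Jun. Of 18 kinases and serum response factors upstream of AP-1, Mapk14, which encodes p38α, was 1.65-fold lower and Map3k1 was 1.73 times as high, with a median of -0.15. Mapk8 and Mapk9, which encode the Jun kinases, were 13.0 against 10.8 CPM and 28.6 against 27.2 CPM.

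Most early response genes outside AP-1 were also lower: 17 of 21 passed 1.5-fold in that direction and none in the other, beside 8.08% and 3.25% of all measured genes, with a median log2 ratio of -1.95. The widest gaps were those of Dusp1 (7.95-fold), a phosphatase of MAP kinases, Klf2 (6.80-fold) and Socs3 (6.74-fold), and the smallest those of Klf6 (1.12-fold), Myc (1.19-fold) and Ccn2 (1.27-fold). Of 10 genes for the decay of AU-rich mRNAs, a class that includes Fos and Jun mRNA, 3 were lower and none higher, with a median of -0.16: Zfp36 (5.49-fold), itself an early response gene, Zfp36l2 (1.62-fold) and Khsrp (1.54-fold). Cnot1 and Cnot7, subunits of the deadenylase complex, had ratios of 1.22 and 1.14. None of 4 genes for the turnover of AP-1 proteins differed by 1.5-fold, and the ubiquitin ligase genes Fbxw7, Itch and Cop1 had ratios of 1.15, 1.08 and 1.04.

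Of 11 measured genes described elsewhere as AP-1 targets, 2 were lower and 2 higher, beside 8.08% and 3.25% of all measured genes, and the median log2 ratio was 0.15. So few genes allow no statement on the targets as a group. Hbegf, a ligand of the EGF receptor, was 60.3 against 27.9 CPM (2.16-fold lower), and Vegfa 55.3 against 28.6 CPM (1.93-fold lower), with Mmp14 next at 1.42-fold. Sphk1 was 6.97 against 15.8 CPM and Hmox1, the heme-degrading enzyme, 129 against 291 CPM, both 2.26 times as high in the high pigment library, and Spp1 was 158 against 234 CPM. These lists were chosen with earlier results of these data known, and their counts are descriptions.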

How the data were processed

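The deposited matrix holds UMI counts per gene and cell barcode of both libraries, which the authors made with Cell Ranger 6.1.2 on mm10, per the submitters' processing notes. The authors' deposited table gives each cell's sort, cluster, phase and percent of mitochondrial UMIs. It held 4036 of 5818 barcodes, and these were exactly the barcodes of at least 7500 UMIs and under 10% mitochondrial UMIs. The sources used here do not say how clusters and phases were called. Cells were grouped by the sort in that table, and counts were summed per library and scaled to CPM. Levels have exact Poisson intervals, ratios exact conditional binomial intervals and shares Clopper-Pearson intervals. With 1 library a group no test was made. A gene is measured at a mean of at least 10 CPM. Scrublet, through scanpy 1.11.5, marked 18 low pigment (0.947%) and 15 high pigment cells (0.702%) as doublets, which were kept in the values reported. Scripts ran on Python 3.11.15 with numpy 2.4.6, scipy 1.17.1 and pandas 2.3.3, and were tested on simulated counts. Ddit3 has 2 gene IDs, of which 1 had UMIs. The members and lists were chosen with earlier results of these data known. Named genes are all members, the 3 highest and 3 lowest ratios of each list, and the 5 genes most like each member, apart from 2 list genes that are not reported here. Alternatives were another scaling, thinning, doublets left out, all barcodes, a depth window, a mitochondrial limit, fold limits, a lower CPM minimum, phases called from thinned counts, other detection limits, another correlation and, chosen after seeing the data, leaving out cells in the other library's clusters.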

Additional observations from a re-analysis of the deposited data

Results flagged for a closer look

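Barcodes that the authors' table leaves out also carried AP-1 UMIs, a signal in data that no comparison above used. In the low pigment library the summed members reached 1698 CPM in 153 barcodes of 10 to 50% mitochondrial UMIs, 1311 CPM in 499 barcodes under 7500 UMIs and 10% mitochondrial UMIs, and 75.3 CPM in 434 barcodes over 50%. Those 434 barcodes held 32 AP-1 UMIs, which is 768 per 1000000 non-mitochondrial UMIs, against 1840 in the low pigment cells of the table. In the high pigment library the sums were 521 CPM in 150 barcodes of 10 to 50%, 633 CPM in 541 shallow barcodes and 768 CPM in 5 barcodes over 50%, the last from 6 UMIs.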

How the results depend on the processing

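The count of 7 members at least 1.5-fold lower was the same under all 7 other ways of summing or scaling the cells, at a lower fold limit, at a mean of at least 2 CPM and in phases called from thinned counts, and was 6 at a fold limit of 2. The 49 alternative member ratios included none that changed direction, and 22 lay outside the main counting interval. Over them Fos ran from 5.85-fold to 8.62-fold lower, Fosb from 5.93 to 8.53, Jun from 5.97 to 7.92, Atf3 from 3.54 to 4.28, Jund from 2.27 to 2.65, Fosl2 from 2.03 to 2.72 and Junb from 1.83 to 2.25. Over all measured genes 634 were lower and 255 higher. After scaling to the median gene these were 462 and 357, with cells of 12000 to 16000 UMIs 644 and 508, and at a mean of at least 2 CPM 1360 and 513. The mean number of members per cell was 5.37 in low and 2.75 in high pigment cells without thinning, 2.63 and 0.777 with at least 2 UMIs required, and 1.96 in high pigment cells without those in the other library's clusters. The cause of these shifts was not tested, beyond the deeper counts or stricter limit that each sets. All 42 alternative shares of cells left the main interval. No paired analysis was possible because each group has 1 library.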
